A study of Mus musculus with 15 samples.

Results

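Neutrophil granule and calprotectin genes were examined in whole mouse aortas by RNA-Seq. The set holds 10 genes, S100a8, S100a9, Retnlg, Ngp, Camp, Ltf, Lcn2, Csf3r, Elane and Ly6g, of the 24982 gene symbols in the counts. These genes were chosen for their measured values, since they were proposed from an earlier look at the comparison of orchiectomized with control mice in these same libraries. That comparison is therefore a description, with no P value printed for any of the 10, and so is the comparison of DHT-treated with orchiectomized mice, which uses the same orchiectomized libraries. Where genes past a P value threshold are counted for these comparisons, nothing is read from the count. In the Results the number or share of all genes is given for the fit of all libraries and for that without the library set apart below. Only the difference between the DHT group and the control group did not enter the choice of genes directly, although it shares its control libraries with the first comparison.

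All mice were wild-type male C57BL/6 mice (C57BL/6J in the study's methods) aged 10 months, and each of the 3 groups held 5 libraries, 15 in all. Every mouse, controls included, received aldosterone at 200 µg/kg per day from an osmotic minipump together with 0.9% NaCl and 0.2% KCl to drink (Aldo-salt) over 7 days, beginning 2 weeks after surgery. Control mice had a sham operation, orchiectomized mice lost their testes, the main source of androgen, and the third group was orchiectomized and carried a pellet of dihydrotestosterone (DHT), a potent androgen that is not converted to estrogen. No group without Aldo-salt was sequenced in the samples analysed here, so the values bear on androgen status during Aldo-salt and not on Aldo-salt itself. The libraries held 8268957 to 13816864 reads assigned to genes, at which depth 10 reads in a library of median size stand for a level of 0.906 CPM (counts divided by the TMM-scaled library size, as edgeR gives them).

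Neutrophils are short-lived white blood cells that are made in the bone marrow and carry their antimicrobial proteins in granules. Azurophil granule proteins are made first, in promyelocytes, specific granule proteins next, in myelocytes and metamyelocytes, and the transcripts of most granule proteins are low in the neutrophils that circulate. S100a8 and S100a9 encode the subunits of calprotectin, a metal-binding protein that fills the neutrophil cytosol and acts as an alarm signal when released, and both stay highly transcribed in mature cells. Several of the genes are not restricted to neutrophils: Ltf (lactoferrin) and Lcn2 (lipocalin 2) are also secreted by epithelia, and Csf3r, the receptor for granulocyte colony-stimulating factor, is also found on monocytes.

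Every gene of the set was found in the RefSeq promoter table (GRCm38.p6), which gives 250 bases before to 50 bases after a transcription start. The submitters' processing notes name mm10, the same build. S100a8, S100a9, Retnlg, Ngp, Camp and Ltf were far higher in orchiectomized than in control aortas, whether or not the library richest in lung transcripts, described further on, was counted. Of these, the promoters of the calprotectin pair and of Ngp and Camp, both on chromosome 9, are shown as examples. They lie at chr3:90668821-90669120 on the plus strand (S100a8), chr3:90695672-90695971 on the minus strand (S100a9), chr9:110419558-110419857 on the plus strand (Ngp) and chr9:109849407-109849706 on the minus strand (Camp), and each is written 5′ to 3′ on the strand of its gene. Capitals mark matches, on either strand, to a C/EBP motif (TTGCNNAA), a PU.1 motif (GAGGAA), an androgen receptor hexamer (AGAACA) or a TATA box (TATAAA).
S100a8: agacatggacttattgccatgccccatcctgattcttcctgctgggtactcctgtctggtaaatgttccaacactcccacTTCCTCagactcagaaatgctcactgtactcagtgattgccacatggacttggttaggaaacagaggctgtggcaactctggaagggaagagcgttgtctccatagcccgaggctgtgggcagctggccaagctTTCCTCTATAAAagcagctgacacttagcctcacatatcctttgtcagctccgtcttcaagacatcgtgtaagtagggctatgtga
S100a9: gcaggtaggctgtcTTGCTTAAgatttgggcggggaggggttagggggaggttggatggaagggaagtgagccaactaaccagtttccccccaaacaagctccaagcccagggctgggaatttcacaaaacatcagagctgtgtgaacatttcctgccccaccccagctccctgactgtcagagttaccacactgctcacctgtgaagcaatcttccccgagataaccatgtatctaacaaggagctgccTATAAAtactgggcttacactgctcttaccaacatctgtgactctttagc
Ngp: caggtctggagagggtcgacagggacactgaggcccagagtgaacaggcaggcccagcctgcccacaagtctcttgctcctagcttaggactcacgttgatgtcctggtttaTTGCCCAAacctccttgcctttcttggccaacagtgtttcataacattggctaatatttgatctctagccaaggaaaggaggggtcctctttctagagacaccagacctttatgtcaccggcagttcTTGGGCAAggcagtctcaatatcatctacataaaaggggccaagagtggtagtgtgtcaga
Camp: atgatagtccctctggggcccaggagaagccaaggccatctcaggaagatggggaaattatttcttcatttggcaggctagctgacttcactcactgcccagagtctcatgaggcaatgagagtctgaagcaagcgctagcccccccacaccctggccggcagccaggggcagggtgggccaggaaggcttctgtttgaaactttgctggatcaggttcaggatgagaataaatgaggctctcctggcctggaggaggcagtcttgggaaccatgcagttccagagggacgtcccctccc

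C/EBP and PU.1 are transcription factors of the myeloid lineage. In S100a8 a PU.1 match at -36, on the minus strand, stood directly before a TATA box match at -30, where 1 is the first transcribed base and there is no position 0. S100a9 held a C/EBP match at -236 and a TATA box match at position 1 of its annotated start. Ngp held C/EBP matches at -138 and -11, and the window of Camp held none of the 4 motifs. Among the 10 genes the C/EBP motif was found in 6 (S100a9, Retnlg, Ngp, Ltf, Lcn2 and Ly6g), against 10.8% of all 32851 promoters in the table. The PU.1 motif was found in 6 (S100a8, Ltf, Lcn2, Csf3r, Ly6g and Elane), against 28.3% of all promoters, and the TATA box in 3 (S100a8, S100a9 and Ly6g), against 13.6%. The androgen receptor hexamer was found in 1, Elane, at position 9, against 19% of all promoters. These counts describe letters in a 300-base window and say nothing of binding.

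Before any comparison, 1 library has to be set apart. Orchiectomized replicate 2 held 38028 counts of the surfactant genes Sftpa1, Sftpb, Sftpc and Sftpd, which mark the lung alveolus, against 1 to 84 in the other orchiectomized libraries, 0 to 4 in control libraries and 1 to 3 in libraries of DHT-treated mice. The summed level of a list of 14 lung genes was 9806.3 CPM in that library. It lay between 41.1 and 85.6 CPM in the other orchiectomized libraries, all above the control range of 22.9 to 36.9 CPM, and between 21.8 and 35.4 CPM with DHT. Values for the 10 genes that move with replicate 2 are therefore given with and without it.

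Calprotectin transcripts were scarce in control aortas and higher in every orchiectomized aorta. S100a8 had 2, 3, 1, 9 and 8 counts in control replicates 1 to 5, 72, 108, 67, 21 and 32 counts in orchiectomized replicates 1 to 5, and 19, 7, 7, 8 and 35 counts in replicates 1 to 5 with DHT. No orchiectomized library overlapped the control libraries, whereas DHT replicates 1 and 5 stood highest in their group, at 1.62 and 3.62 CPM, above the lowest orchiectomized library (replicate 4, 1.44 CPM). The mean level was 0.387 ± 0.28 CPM in control, 5.44 ± 3.41 CPM in orchiectomized and 1.55 ± 1.21 CPM in DHT-treated mice (SD, n = 5 each). The difference of orchiectomized from control mice was 3.74 ± 0.65 on the log2 scale (SE), or 13.3-fold, and 3.40 ± 0.64 without replicate 2. In whole aortas more or fewer neutrophils cannot be told apart from more or less RNA per neutrophil, here and for every gene that follows.

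S100a9 followed the same order. It had 12, 1, 6, 12 and 8 counts in control, 113, 150, 108, 34 and 61 in orchiectomized, and 28, 10, 17, 11 and 58 counts in DHT-treated replicates 1 to 5. Replicates 1, 2 and 3 of the orchiectomized group were the 3 highest of all libraries and replicate 4 the lowest of that group, as for S100a8. Group means were 0.677 ± 0.369, 8.44 ± 4.68 and 2.57 ± 2.01 CPM (SD, n = 5 each), and the log2 difference of orchiectomized from control mice was 3.60 ± 0.62, or 3.35 ± 0.62 without replicate 2. In orchiectomized replicate 5 the surfactant genes summed to 1 count and the lung list to 44 CPM, above the control range of 22.9 to 36.9 CPM. S100a8 had 32 counts in that library and S100a9 61, against highest control counts of 9 and 12. Whether lung RNA had a part in these levels was not tested.

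The calprotectin genes kept a nearly fixed ratio while their level changed. S100a8 made up 38.9%, 41.9%, 38.3%, 38.2% and 34.4% of the reads of the pair in orchiectomized replicates 1 to 5, and 29.2% to 42.1% in the DHT-treated libraries. Summed over each group the share was 37.1% in control (95% Wilson interval 26.2% to 49.5%, 62 reads), 39.2% in orchiectomized (35.8% to 42.7%, 766 reads) and 38% in DHT-treated mice (31.6% to 44.9%, 200 reads). Single control libraries, with 4 to 21 reads of the pair, gave shares from 14.3% to 75%. The intervals cover counting error only, and the counts were not divided by transcript length, so the share compares libraries and not the levels of the genes.

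Retnlg, a resistin-like protein secreted by neutrophils and other marrow cells, was close to the limit of detection in control mice. It had 1, 2, 1, 2 and 2 counts in control, 22, 52, 16, 5 and 11 in orchiectomized, and 4, 3, 4, 2 and 11 counts in DHT-treated replicates 1 to 5. In CPM it was the only gene of the set for which every DHT-treated library lay above every control library (0.247 to 1.14 against 0.0906 to 0.187 CPM), an order that 1.35% of all 19989 genes with at least 1 count also showed. The ratio of the summed reads, adjusted for library size, was 12.7 between orchiectomized and control mice (95% counting interval 6.21 to 30.2). Replicate 2 alone held 37.7% of all Retnlg reads. Without it the orchiectomized mean fell from 1.92 ± 1.67 (SD, n = 5) to 1.25 ± 0.86 CPM (SD, n = 4).

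**Figure D1:**
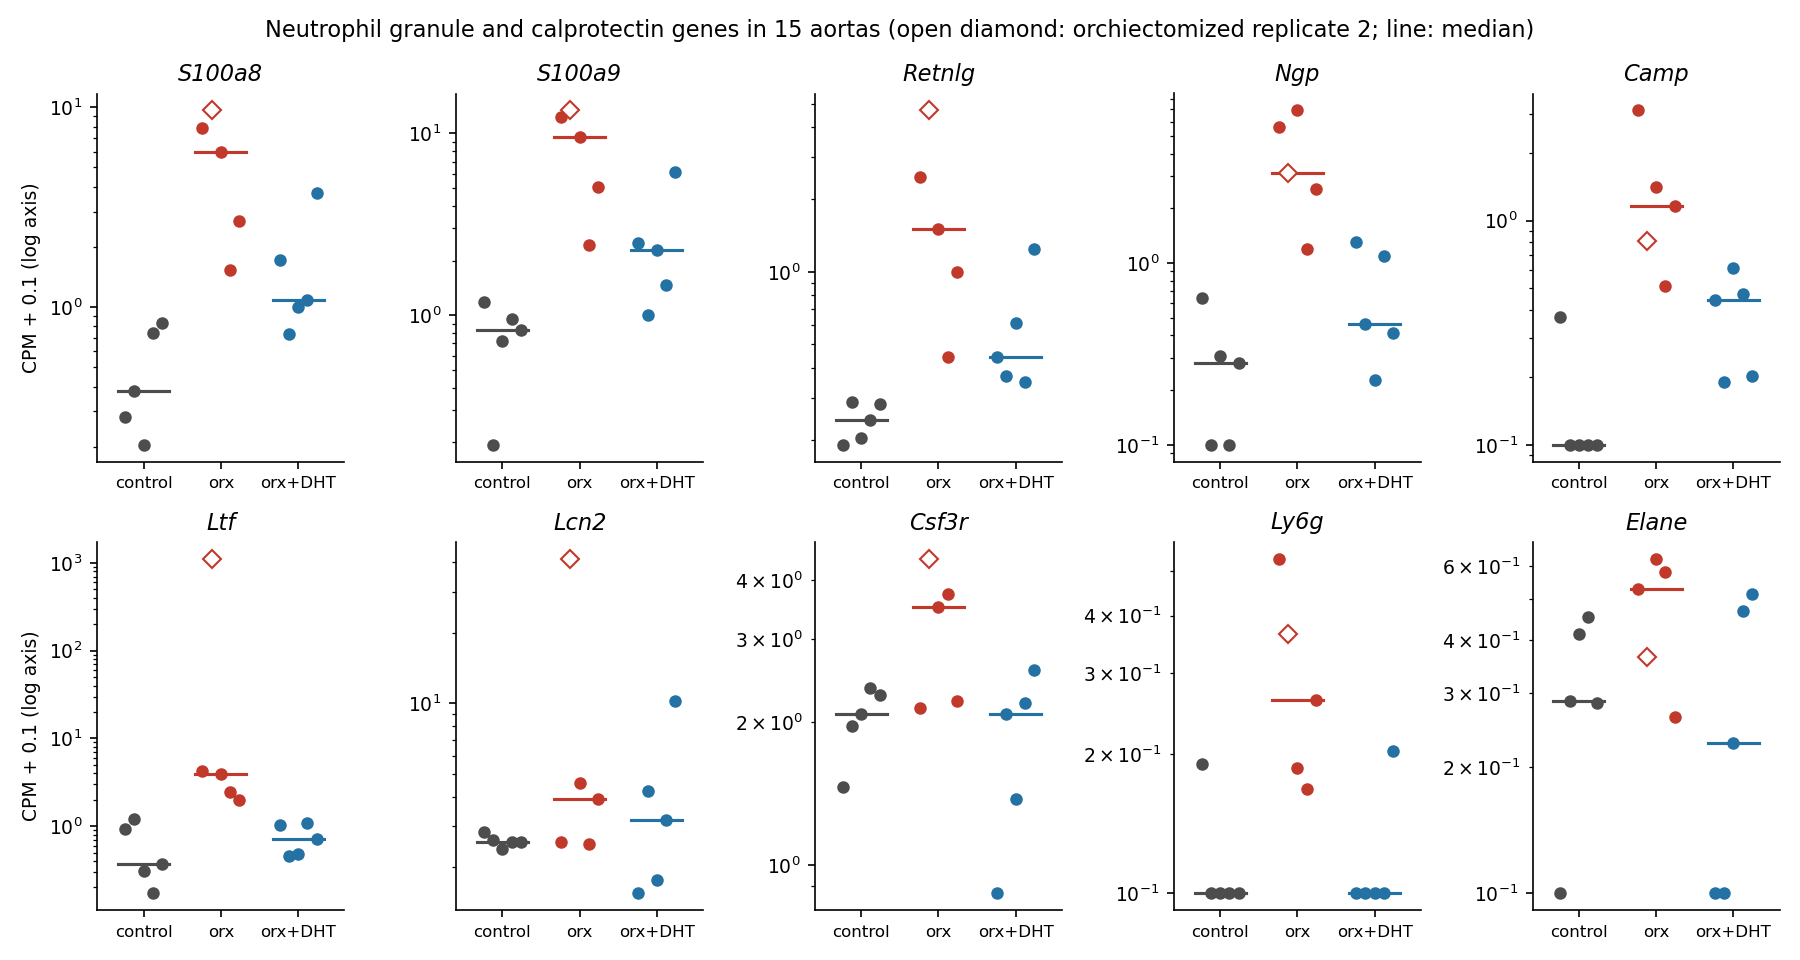
Level of each gene (CPM + 0.1, log axis with its own range in each panel) in the control, orchiectomized (orx) and DHT-treated orchiectomized (orx+DHT) mice, with 1 point per library and a line at the median of 5. S100a8, S100a9, Retnlg, Ngp, Camp and Ltf have every orchiectomized library above every control library, and the open diamond of orchiectomized replicate 2 leaves the others in Ltf (1116.1 CPM) and Lcn2 (41.3 CPM).

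Among the specific granule genes, Ngp and Camp were near 0 in control mice. Ngp, neutrophilic granule protein, had 6, 0, 2, 0 and 2 counts in control, 51, 34, 78, 16 and 30 in orchiectomized, and 14, 4, 1, 8 and 3 counts in DHT-treated replicates 1 to 5. The highest library was orchiectomized replicate 3, and replicate 2, with the most lung transcripts, was the third of its group. Means were 0.187 ± 0.222 CPM in control, 3.77 ± 2.33 in orchiectomized and 0.597 ± 0.467 in DHT-treated mice (SD, n = 5 each). The log2 difference of orchiectomized from control mice was 4.29 ± 0.79, and 4.34 ± 0.80 without replicate 2. It was 5.20 without control replicate 1, which held 6 of the 10 control reads. A count of 0 allows up to 3 reads, or 0.281 CPM in control replicate 2 and 0.212 CPM in control replicate 4.

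Camp, the cathelicidin antimicrobial peptide, had 3 counts in control replicate 1 and 0 in the other 4 control libraries. Orchiectomized replicates 1 to 5 held 28, 8, 15, 6 and 13 counts, and DHT-treated replicates held 4, 1, 4, 3 and 1. Replicate 1 was the highest library and replicate 2 the second lowest of the orchiectomized group. The ratio of summed reads was 22.4 between orchiectomized and control mice, with a counting interval of 7.34 to 111 because only 3 control reads stand behind it. Between orchiectomized and DHT-treated mice it was 4.42 (2.43 to 8.72).

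Ltf and Lcn2 behaved differently from these genes. Ltf had 9, 12, 2, 1 and 3 counts in control, 39, 12612, 44, 34 and 23 in orchiectomized, and 11, 4, 3, 8 and 6 counts in DHT-treated replicates 1 to 5. Replicate 2 held 98.4% of all Ltf reads and was 266 times the next library, yet the other 4 orchiectomized libraries (1.87 to 4.2 CPM) still lay above all control libraries (0.0708 to 1.12 CPM) and all DHT-treated libraries (0.36 to 0.987 CPM). With replicate 2 the log2 difference of orchiectomized from control mice was 8.83 ± 2.06 and without it 2.59 ± 0.54. For DHT-treated against orchiectomized mice it was -8.39 ± 2.01 with replicate 2 and -2.17 ± 0.54 without. Ltf was the only gene of the set with every orchiectomized library above every DHT-treated library, as were 3.48% of all genes with at least 1 count.

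Lcn2, which binds bacterial siderophores, had 30, 27, 22, 35 and 27 counts in control, 23, 467, 51, 35 and 47 in orchiectomized, and 17, 46, 13, 25 and 98 counts in DHT-treated replicates 1 to 5. Besides replicate 2, which stood 4.08-fold over the next library, the highest level was in DHT-treated replicate 5, and of the other orchiectomized libraries replicates 1 and 4 lay within the control range of 2.29 to 2.72 CPM and replicates 3 and 5 above it. The log2 difference of orchiectomized from control mice fell from 2.12 ± 0.78 to 0.39 ± 0.46 once replicate 2 was left out. The difference of DHT-treated from orchiectomized mice changed sign, from -1.41 ± 0.76 to 0.33 ± 0.46.

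**Figure D2:**
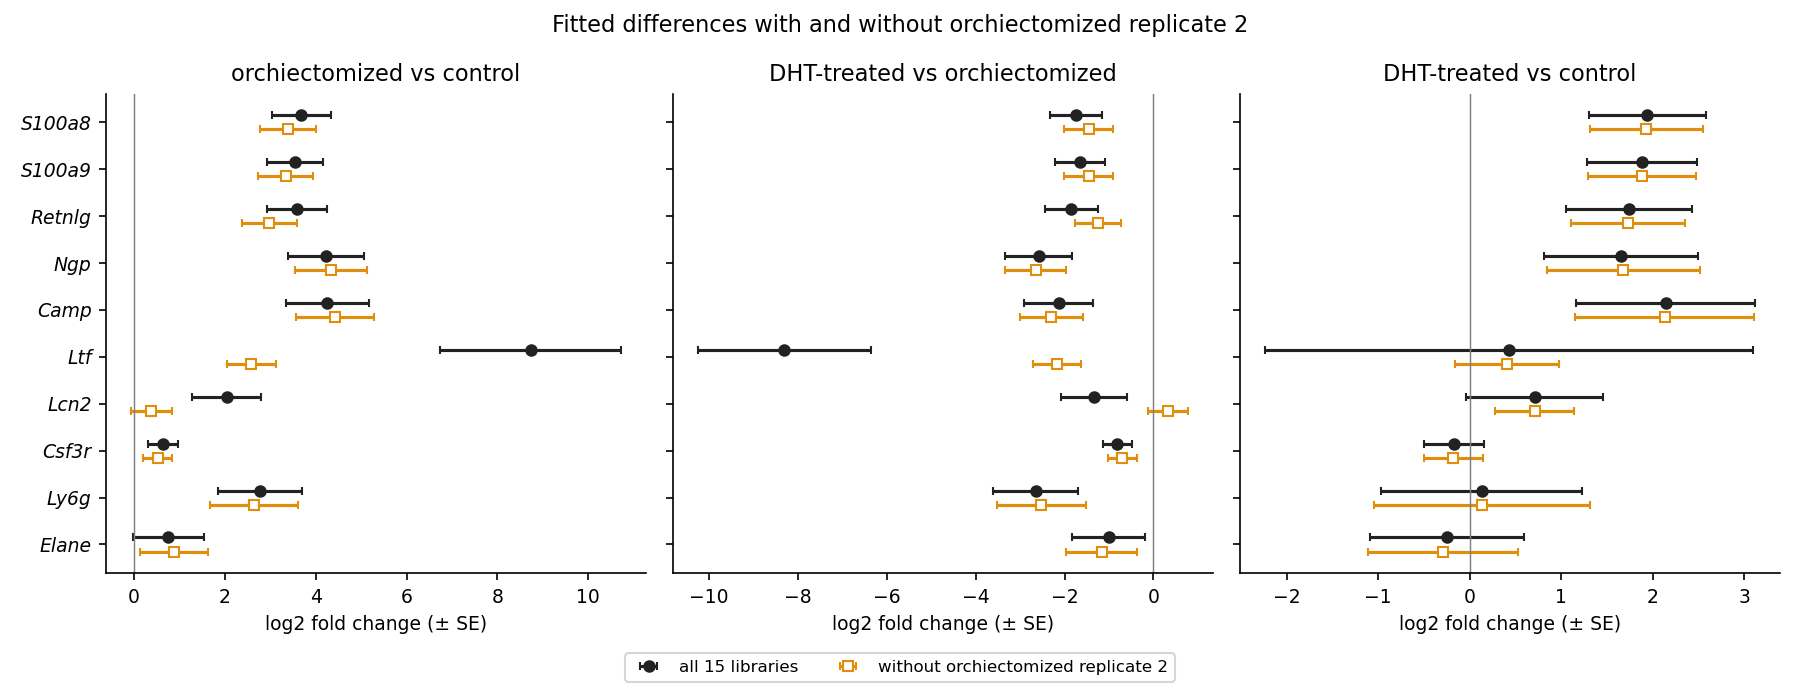
Log2 fold change with its SE for each gene in the 3 comparisons, fitted over every gene that had a read, with all 15 libraries (filled circles) and without orchiectomized replicate 2 (open squares). Leaving out replicate 2 shortens the Ltf difference from 8.73 to 2.58 in orchiectomized against control mice and moves Lcn2 to 0.38, while S100a8 moves from 3.68 to 3.39, Ngp from 4.23 to 4.33 and Camp from 4.26 to 4.43.

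Of the surface genes, Csf3r had 15, 20, 19, 32 and 24 counts in control, 19, 49, 39, 53 and 26 in orchiectomized, and 9, 22, 10, 17 and 24 counts in DHT-treated replicates 1 to 5. Its groups overlapped, and the log2 difference of orchiectomized from control mice was 0.68 ± 0.31, or 0.53 ± 0.32 without replicate 2. Ly6g, the surface antigen by which mouse neutrophils are commonly recognized, had 1 read in all control libraries together, 4, 3, 1, 1 and 2 counts in orchiectomized replicates 1 to 5, and 1 read in all DHT-treated libraries together. The ratio of summed Ly6g reads was 10.5 between orchiectomized and control mice, with a counting interval of 1.53 to 454. At least 1 Ly6g read was present in each orchiectomized library, whereas 4 of 5 libraries in each of the other groups held none.

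The azurophil granule gene Elane, encoding neutrophil elastase, did not separate the groups. It had 0, 2, 3, 5 and 2 counts in control, 4, 3, 6, 7 and 2 in orchiectomized, and 0, 0, 1, 3 and 4 counts in DHT-treated replicates 1 to 5. The ratio of summed reads was 1.76 between orchiectomized and control mice (counting interval 0.832 to 3.89).

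The filter on low counts kept 6 of the 10 genes (S100a8, S100a9, Ngp, Ltf, Lcn2 and Csf3r) among 14121 genes tested, and Retnlg, Camp, Elane and Ly6g did not pass it. S100a8, Ngp and Ltf entered the fit through the group in which they were high, since the filter kept none of the 3 when only DHT-treated and control libraries were taken, and counts over the fitted genes do not stand for the set. S100a8, S100a9, Ngp and Ltf, 4 of the 6, passed an unadjusted P value of 0.01 as higher in orchiectomized than in control mice, as did 2.08% of all genes tested, and the same 4 passed without replicate 2, where the share of all genes was 0.846%. When all genes with at least 1 count were fitted, Retnlg, Camp and Ly6g also passed (7 of 10, background 2.49%), and without replicate 2 Ly6g did not (6 of 10, background 0.910%). Every orchiectomized library lay above every control library for 6 of the 10 (S100a8, S100a9, Retnlg, Ngp, Camp and Ltf), as for 0.936% of the 19989 genes with a read. The genes were selected on this comparison, and 3 of the fitted genes passed the filter through the orchiectomized group, so these counts carry no weight beyond description. The median log2 difference of the 6 tested genes was 3.67, and 2.97 without replicate 2, beside 0.037 and 0.0121 for all genes tested.

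DHT-treated mice had lower mean levels than orchiectomized mice for most of the set. The genes were chosen for being high in these same orchiectomized libraries, so the counts that follow carry no weight beyond description. The log2 difference was -1.79 ± 0.58 for S100a8, -1.71 ± 0.56 for S100a9, -2.61 ± 0.69 for Ngp and -0.85 ± 0.32 for Csf3r. Of the 6 tested genes S100a8, S100a9, Ngp and Ltf passed the threshold as lower, beside 7.27% of all genes. Without replicate 2 only Ngp (-2.65 ± 0.70) and Ltf passed, beside 5.26% of all genes, and S100a8 and S100a9 were each at -1.46, with SE of 0.57 and 0.56. With all 15 libraries Ngp and Ltf were also below an adjusted P value of 0.05, as were 3.80% of all genes. Without replicate 2 Ltf alone was, as were 277 of 14188 genes. Single libraries mattered here too: leaving out orchiectomized replicate 1 or 3 or any 1 of DHT-treated replicates 1 to 4 likewise left 2 genes past the unadjusted threshold. When every gene with a read was fitted, 5 of 10 passed, Retnlg among them (background 6.09%), and 3 passed without replicate 2, namely Ngp, Camp and Ltf (background 4.42%). The median log2 difference of the 6 tested genes was -1.75, and -1.46 without replicate 2, beside -0.0224 and 0.00731 for all genes tested.

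DHT-treated orchiectomized mice were then compared with control mice, which asks how far the levels stood from those of mice with their own testes. S100a8 differed by 1.94 ± 0.65 on the log2 scale (3.85-fold) and S100a9 by 1.89 ± 0.61 (3.72-fold), and both were past the unadjusted threshold as higher, as were 1.52% of all genes tested. Low control values entered the choice of the genes and the same control libraries are used here, so these calls are given as a description too. S100a8, Ngp and Ltf were in the fit through their level in the orchiectomized group, and none of the 3 was kept when only the DHT-treated and control libraries were fitted. Neither gene passed correction over all genes, with an adjusted P value from edgeR of 0.279 for S100a8 and 0.261 for S100a9. Orchiectomized replicate 2 is in neither group, and both genes were past the unadjusted threshold without it (background 2.26%). Neither gene was past the threshold with voom or with the replicate number as a block in the fit, and the calls rested on other single libraries. Without control replicate 2 or 3, or DHT-treated replicate 1 or 5, neither gene passed, and without control replicate 1, 4 or 5, orchiectomized replicate 1 or 3, or DHT-treated replicate 3 only 1 of them did. Leaving out DHT-treated replicate 5, which held 35 and 58 counts, brought the log2 differences to 1.37 for S100a8 and 1.30 for S100a9. The difference for Ngp was 1.68 ± 0.84 (adjusted P = 0.451 in edgeR), or 2.59 without control replicate 1. It was 0.71 ± 0.78 for Lcn2 (adjusted P = 0.743 in edgeR), or 0.06 without DHT-treated replicate 5, 0.44 ± 2.82 for Ltf (0.966) and -0.17 ± 0.32 for Csf3r (0.865). The labels number the libraries of a group but do not say that each came from its own mouse, so the P values measure the spread between these libraries.

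The make-up of the neutrophil transcripts differed between individual aortas. Ngp and Camp together made up 27.6%, 32.7%, 26.8% and 29.3% of the reads of S100a8, S100a9, Retnlg, Ngp and Camp in orchiectomized replicates 1, 3, 4 and 5. In replicate 2 the share was 11.9% (95% Wilson interval 8.95% to 15.7%, 352 reads), below the intervals of the other 4, the lowest of which began at 18.4%. In DHT-treated replicate 5, the highest of its group for calprotectin, it was 3.7% (1.45% to 9.14%, 108 reads), against 15.2% to 34.4% in the other DHT-treated libraries. Summed over groups it was 15.7% in control (9.39% to 25%, 83 reads), 24.2% in orchiectomized (21.9% to 26.8%, 1151 reads) and 16.1% in DHT-treated mice (12.2% to 21%, 267 reads). Single libraries moved these sums: the share was 6.78% in control without replicate 1, 24.5% in DHT-treated mice without replicate 5 and 29.7% in orchiectomized mice without replicate 2. Replicate 2 and DHT-treated replicate 5 thus had a smaller part of these reads from the specific granule genes than the other libraries of their groups.

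**Figure D3:**
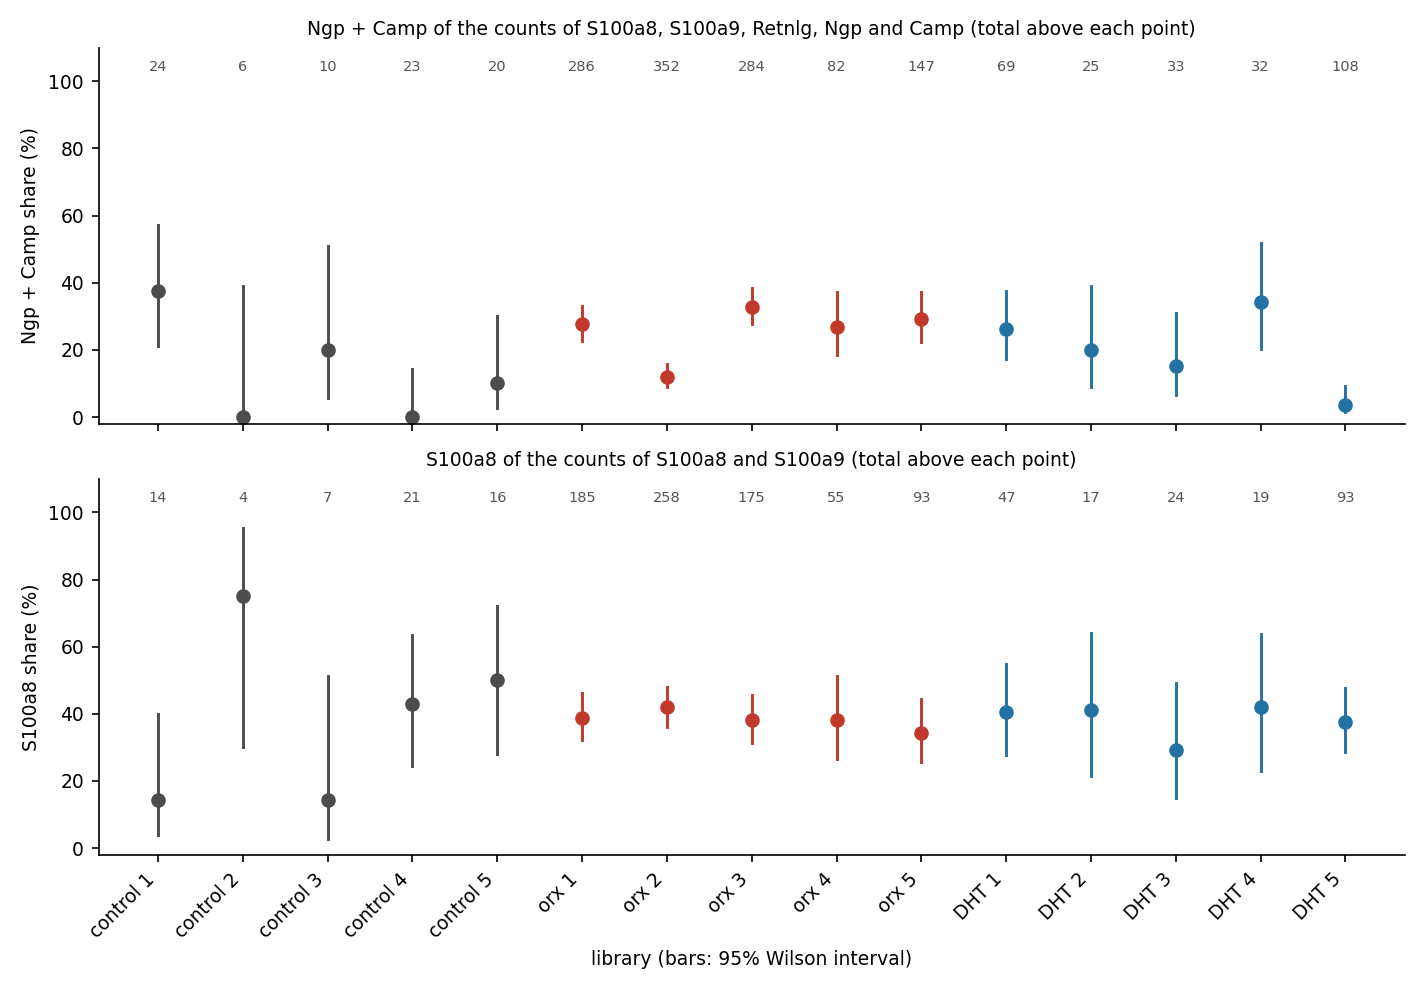
Share of reads in each library (percent, bars 95% Wilson intervals, total reads above each point), with Ngp and Camp of 5 neutrophil genes in the upper panel and S100a8 of the calprotectin pair in the lower panel. The upper share is 11.9% in orchiectomized replicate 2 and 3.7% in DHT-treated replicate 5 while the lower share stays between 29.2% and 42.1% in all orchiectomized and DHT-treated libraries.

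Some of the genes went together more closely than others over libraries. Without replicate 2 and with group means subtracted, Pearson's r of log2(CPM + 0.5) over 14 libraries was 0.84 for S100a8 with S100a9, 0.88 for S100a8 with Retnlg and 0.65 for Ngp with Camp, against 0.45 for S100a8 with Ngp and 0.26 for S100a8 with Ltf. Lcn2 went with Csf3r (0.63) rather than with Ngp (-0.03) or Ltf (-0.04). The libraries are the same for every pair and several genes have few reads, so these values are descriptions. Among all other tested genes, the 10 whose log2 CPM over the 15 libraries was most like the mean of the tested members were Zfp503, Alcam, Ipo5, Ttc5, Unc13d, Gpd1l, Gdpd1, Hmgb2, Sox4 and Nceh1, with r from 0.86 to 0.88. Without replicate 2 their r ranged from 0.68 to 0.84 and with group means removed from 0.63 to 0.85, and none of them is in the lists of neutrophil genes or of other cell types used here. Set against the mean of S100a8, S100a9 and Ngp alone, a reference chosen after seeing the data that leaves out Ltf and Lcn2, the 10 likest genes were Gnb1l, Ttc5, Gpd1l, A930007A09Rik, Eif4b, Dpp3, Pik3ip1, Ipo5, Cdc42ep4 and Ssbp3. Their r ranged from 0.81 to 0.90, and from 0.77 to 0.91 without replicate 2, with Gnb1l highest in both (0.90 and 0.91). With group means removed their r ranged from 0.41 (A930007A09Rik) to 0.81 (Gnb1l). Ttc5, Gpd1l and Ipo5 were thus among the 10 for either reference, but the references share S100a8, S100a9 and Ngp, so this overlap is not independent.

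S100a8 (chr3:90669071-90670034) and S100a9 (chr3:90692630-90695721) lie in the cluster of S100 genes, but none of 9 tested other S100 genes passed the threshold in any of the 3 comparisons, and their median log2 difference between orchiectomized and control mice was 0.14. Of 20 other tested genes around the pair (chr3:90169071-91195721), 1 was higher in orchiectomized than in control mice, Creb3l4 (1.38 ± 0.39), and none was lower. With DHT, Ints3 was higher (0.33) and Slc27a3 lower (-0.72) than after orchiectomy alone, both named after their values were seen. Camp, Ngp and Ltf lie within 1195389 bases of chromosome 9 (chr9:109847377-111042766), where none of 20 other tested genes passed in either direction between orchiectomized and control mice and 1, Pth1r, named after its values were seen, was higher with DHT than after orchiectomy alone. Of all genes, 2.08% passed as higher in orchiectomized than in control mice, and with DHT 2.46% were higher and 7.27% lower than after orchiectomy alone.

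A wider set of 53 neutrophil genes outside the 10 was examined in 3 lists. Counts in these and later lists are to be set beside all genes. Of these, 2.08% were higher in orchiectomized than in control mice, and with DHT 7.27% were lower and 2.46% higher than after orchiectomy alone. Against control, 1.52% were higher and 2.01% lower with DHT. Without replicate 2, in the same order, these were 0.846%, 5.26%, 444 of 14188 genes, 2.26% and 360 of 14188 genes. Among 7 azurophil granule and progenitor genes 3 were tested, and none passed in orchiectomized against control mice, where their median log2 difference was 0.20. Igsf6, a receptor of myeloid cells, was the only 1 that passed as lower with DHT than after orchiectomy alone (-1.33 ± 0.41), and it did not pass without replicate 2 (-1.25 ± 0.43). Mpo, the myeloperoxidase of azurophil granules, and Prtn3, proteinase 3 of the same granules, were named after their values were seen. Mpo did not pass the filter and had 2 reads in all control libraries, 6, 4, 8, 2 and 4 in orchiectomized replicates 1 to 5, and 2 reads in all DHT-treated libraries. Prtn3 had 14, 12, 16, 5 and 11 counts in control and 6, 17, 4, 5 and 9 in orchiectomized replicates 1 to 5, a log2 difference of -0.59 ± 0.50, or -1.06 ± 0.48 without replicate 2.

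Of 14 other specific and gelatinase granule genes 8 were tested, of which 3 were higher, beside 2.08% of all genes, and none lower in orchiectomized than in control mice. None of the 8 was higher without replicate 2, where Hp passed as lower (-1.13 ± 0.29), as did 134 of 14188 genes. Adam8, a surface protease, had 747 counts in replicate 2 and 14 to 62 in the other orchiectomized libraries, against 25 to 50 in control, and its log2 difference went from 2.41 ± 0.81 to 0.21 without that library. Chil3, a chitinase-like protein also made by alveolar macrophages, had 578 counts in replicate 2 and 13 to 22 in the other 4. With DHT, 4 of the 8 were lower and 1 was higher than after orchiectomy alone, beside 7.27% and 2.46% of all genes. Without replicate 2 these were 2 and 1, beside 5.26% of all genes and 444 of 14188 genes. Cybb, a subunit of the phagocyte NADPH oxidase, was lower (-1.14 ± 0.28). Hp (haptoglobin), which the liver and fat also make, was the 1 that was higher (1.13 ± 0.31), and it had 1432 to 4992 counts in orchiectomized against 3879 to 7552 in control libraries.

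Mature neutrophil genes numbered 32, and 12 were tested, while Mrgpra2a and Stfa2 were at 0 in every library. The tested genes do not stand for neutrophils alone: Itgb2 and Alox5ap averaged 15.6 and 16.5 CPM in control mice, where Ly6g averaged 0.0181 CPM. How much of their level came from other myeloid cells was not tested. With DHT, 8 of the 12 were lower than after orchiectomy alone, beside 7.27% of all genes, and 4 were lower, beside 5.26% of all genes, and 1 was higher without replicate 2. They included Itgb2, the shared chain of the leukocyte integrins (-1.60 ± 0.34), Padi4, which citrullinates histones (-1.85 ± 0.47), and Alox5ap, needed for leukotriene synthesis (-0.98 ± 0.28), of which Alox5ap did not pass without replicate 2 (-0.68 ± 0.24). No gene of the 3 lists passed in DHT-treated against control mice with all 15 libraries, where 2.01% of all genes were lower, and without replicate 2 Adam8 was lower (-1.13 ± 0.28, adjusted P = 0.0958 in edgeR). Medians over the 12 were 0.70 for orchiectomized against control, -1.11 for DHT-treated against orchiectomized and -0.41 for DHT-treated against control mice, beside -0.00291 for all genes in the last. Without replicate 2 they were 0.27, -0.75 and -0.41. The macrophage list described below had medians of 0.11, -0.76 and -0.47 in the same order with all libraries.

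Of 12 genes for neutrophil attractants and growth factors only 2 were tested, C5ar1 and Ppbp, and C5ar1, the receptor for complement C5a, was lower with DHT than after orchiectomy alone (-0.76 ± 0.26), but not without replicate 2 (-0.70 ± 0.27). Il17a was at 0 in every library. Of 16 receptors, partners and inhibitors of the encoded proteins 14 were tested, of which 2 were higher in orchiectomized than in control mice (2.08% of all genes). With DHT, 4 were lower than after orchiectomy alone (7.27% of all genes) and 1 lower than in control (2.01%). Without replicate 2 none was higher in orchiectomized than in control mice. With DHT, 4 were lower (5.26% of all genes) and 1 higher (444 of 14188 genes) than after orchiectomy alone, and 4 were lower than in control (360 of 14188 genes). Tlr4, a receptor for calprotectin, was lower with DHT than after orchiectomy alone (-0.47 ± 0.15) and differed by 0.05 ± 0.14 between orchiectomized and control mice. Ager, another calprotectin receptor and an abundant alveolar gene, had 5235 counts in replicate 2 and 2 to 18 in every other library. Serpinb1a, an inhibitor of neutrophil elastase, was higher in orchiectomized than in control mice (0.94 ± 0.32) and lower with DHT (-1.85 ± 0.33), and only the second passed without replicate 2 (0.59 ± 0.27 and -1.49 ± 0.28). Lrp2, an endocytic receptor that takes up lipocalin 2, had 15 to 39 counts in control, 11 to 133 in orchiectomized and 2 to 6 in DHT-treated libraries, a log2 difference of -2.95 ± 0.58 between DHT-treated and control mice (adjusted P = 0.0506 in edgeR, and 0.0114 without replicate 2).

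Among 6 tested myeloid transcription factors of 8 listed, none passed in orchiectomized against control mice. Klf5 (-2.38 ± 0.73) and Runx1 (-1.11 ± 0.36) were lower with DHT than after orchiectomy alone, and neither was without replicate 2, which held 140 and 503 of their counts. Cebpd was higher in DHT-treated than in control mice (0.53 ± 0.15, adjusted P = 0.187 in edgeR). In a list of 9 resistin-like and Ly6 relatives, 7 were tested, and Ly6d and Ly6c2, markers of lymphoid and monocyte cells, were higher in orchiectomized than in control mice (2.99 ± 0.64 and 2.63 ± 0.68) and lower with DHT (-3.11 ± 0.65 and -2.61 ± 0.68), in each case also without replicate 2.

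Markers of other cells moved with the group as well. T cell genes summed to 8.83, 41.6, 72.5, 34.2 and 15.4 CPM in orchiectomized replicates 1 to 5, against 5.25 to 15.5 CPM in control and 4.53 to 7.48 CPM with DHT. B cell genes summed to 6.78, 165, 40.7, 75.4 and 14.3 CPM in the same 5 libraries, against 3.75 to 9.38 and 2.91 to 11.1 CPM. In each list 5 of 6 tested genes passed as higher in orchiectomized than in control mice and all 6 as lower with DHT than after orchiectomy alone, beside the 2.08% and 7.27% of all genes given above. Without replicate 2 the genes higher in orchiectomized mice were 4 of 6 for T cells and 5 of 6 for B cells, beside 0.846% of all genes. Orchiectomized replicate 1 was within the control range of both lists while it had the highest Camp and the second highest S100a8 level of all libraries. Replicate 4, high in both lists, was the lowest of its group for S100a8, S100a9, Retnlg, Ngp and Camp. The other libraries went the other way. Replicate 3 had the highest T cell sum and the highest Ngp level, and replicate 2 the highest B cell sum and the highest S100a8 and S100a9 levels. Replicate 5 was second lowest of its group in both lists and for S100a8 and S100a9. How far lymphoid and neutrophil levels go together was not tested. Genes of eosinophils, which like neutrophils are granulocytes that arise in marrow, were below the filter on low counts. Their sum was 34 to 248 reads in orchiectomized libraries, 3 to 28 in control and 1 to 12 with DHT. In CPM it was 2.77 to 21.9 in orchiectomized libraries (2.77 to 5.6 without replicate 2), 0.281 to 2.56 in control and 0.123 to 1.08 with DHT. The lowest orchiectomized library was thus only just above the highest control library. Among single genes with a read, every orchiectomized library lay above every control library in 0.936% and above every DHT-treated library in 3.48%.

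Of 8 monocyte genes, all tested, 2 passed as higher in orchiectomized than in control mice, beside 2.08% of all genes. With DHT, 3 were lower than after orchiectomy alone, beside 7.27% of all genes. Without replicate 2 these were 1 and 2, beside 0.846% and 5.26%. The list summed to 190 to 485 CPM in orchiectomized, 148 to 276 in control and 116 to 233 CPM in DHT-treated libraries. Macrophage genes summed to 624 to 888, 405 to 966 and 407 to 697 CPM in the same order. Of 12 genes none passed in orchiectomized against control mice. With DHT, 3 were lower than after orchiectomy alone (2 without replicate 2), beside 7.27% of all genes (5.26% without replicate 2). Mast cell and basophil genes summed to 144 to 279, 75 to 199 and 59.1 to 171 CPM. Of the red cell list, Hba-a1, Hba-a2, Hbb-bs and Hbb-bt were listed at 0 in every library, so the amount of blood left in a vessel could not be read from globin transcripts, and the sum of the other red cell genes was 42.2 to 139 CPM in control, 60.8 to 120 in orchiectomized and 73.7 to 160 CPM with DHT. Platelet genes summed to 27.8 to 50.1, 37.9 to 56.7 and 32 to 54.5 CPM. The smooth muscle list, which defines the aorta, summed to 13620.4 to 19534.4 CPM in control, 10781.5 to 19641.1 in orchiectomized (lowest in replicate 2) and 19098.0 to 23855.9 CPM in DHT-treated libraries. None of its 6 genes passed in any comparison with all libraries, and their median log2 difference was 0.43 for DHT-treated against orchiectomized and 0.41 for DHT-treated against control mice. Without replicate 2, 1 was higher with DHT than after orchiectomy alone and 2 higher with DHT than in control. Endothelial genes summed to 710 to 1063.5 CPM in control, 821 to 1175.1 in orchiectomized and 567 to 770 CPM with DHT. Of 6 endothelial genes none passed in orchiectomized against control mice, 2 were lower with DHT than after orchiectomy alone and 3 lower with DHT than in control, with and without replicate 2. Beside these 2 counts stand 7.27% and 2.01% of all genes, and without replicate 2 5.26% and 360 of 14188 genes. The part of blood, lymphoid tissue or lung in the levels of the neutrophil genes was not tested.

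**Figure D4:**
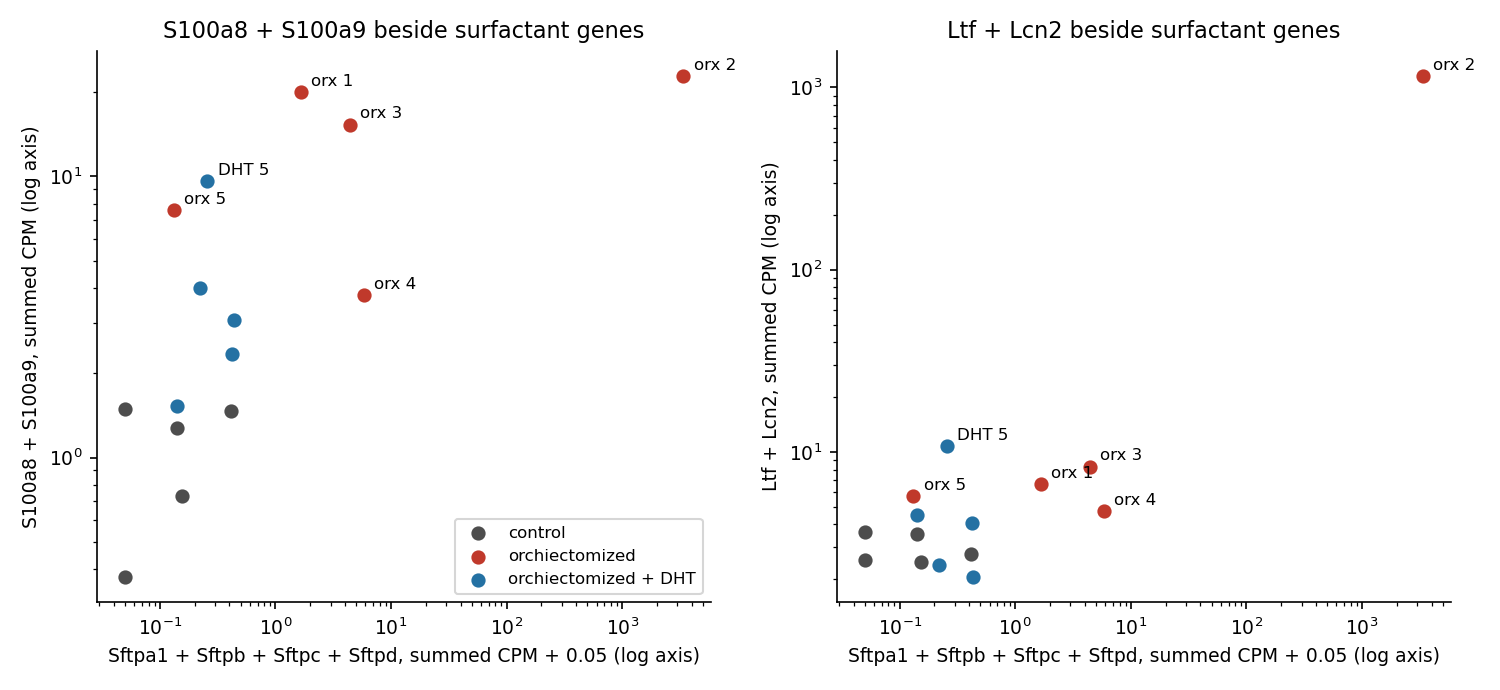
Summed CPM of S100a8 and S100a9 (left) and of Ltf and Lcn2 (right) against summed CPM + 0.05 of 4 surfactant genes, on log axes, with 1 point per library. Orchiectomized replicate 2 (3365.3 CPM of surfactant genes) stands apart in both panels. Its calprotectin level is 22.8 CPM, and that of replicate 1, with 1.61 CPM of surfactant genes, is 19.9 CPM.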

How the data were processed

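The authors deposited raw counts of reads per gene symbol, 1 file per library, with no normalization. The submitters' processing notes name STAR, Cufflinks, DESeq2 and mm10; the counting program, its strand setting and the gene annotation are not given in the sources used here. Reads in no gene (6.264% to 14.41%) or in several (1.339% to 1.97%) were left out. Counts were analysed in R 4.3.3 with edgeR 4.0.16 (TMM, filterByExpr with minimum count 10 and minimum total 15, quasi-likelihood fit of 3 groups, common coefficient of variation 0.297), tested on simulated data first. Calls used the study's unadjusted P under 0.01, with Benjamini-Hochberg values over 14121 genes. The members and lists were chosen with earlier results of these data known. Named genes are all 10 members, up to 4 called genes per list by smallest P value, list genes at 0 in every library, and the 10 genes of likest pattern by Pearson's r (log2 CPM, prior count 3). A few other genes were named after their values were seen. The result of 1 gene of the mature neutrophil list is not reported here. Alternatives were RLE, other filters, DESeq2 1.42.0, voom with limma 3.58.1, a robust fit, only the groups compared, the replicate number as a block, an adjusted threshold and leaving out each library. Intervals, from SciPy 1.17.1, and the limit of 3 reads behind a 0 cover counting error only.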

Additional observations from a re-analysis of the deposited data

Results flagged for a closer look

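Within groups of 5 libraries, a sample was picked out when its gap to the nearest other sample took up more of the group's range than Dixon's 95% limit allows, which chance does in about 1 of 20 groups. Of 33 groups, 6 gave such a sample. Orchiectomized replicate 2 stood apart for Ltf, at 1116.1 CPM against 1.87 to 4.2 CPM in the other 4 libraries. The same library stood apart for Lcn2, at 41.3 CPM against 2.41 to 4.46 CPM, and for the summed lung list, at 9806.3 CPM against 41.1 to 85.6 CPM. The remaining 3 rest on very few reads: Camp in control replicate 1 (0.272 CPM, 3 reads, with 0 in the other 4), Ly6g in control replicate 1 (0.0906 CPM, 1 read) and Ly6g in DHT-treated replicate 5 (0.103 CPM, 1 read). Replicate 2 did not stand apart by this measure for S100a8, S100a9, Retnlg, Ngp, Camp, Csf3r, Elane or Ly6g.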

How the results depend on the processing

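In every alternative in which a gene of the 10 could be fitted, its log2 difference of orchiectomized from control mice was above 0. The count of 4 genes higher after orchiectomy was 7 with all genes of at least 1 count, 0 of 1 tested gene with at least 10 counts in every library, 0 at an adjusted P under 0.05, and 4 to 6 when a library was left out. The count of 4 genes lower with DHT was 0 with at least 10 counts in every library, 1 with voom, 2 with only the groups compared, 2 at the adjusted threshold, 2 with DESeq2 without replicate 2, and 2 to 5 when a library was left out. The count of 2 genes higher with DHT than in control was 0 with at least 10 counts in every library, 0 with voom, 1 with only the groups compared (S100a9, of 3 genes tested, S100a8 not among them), 0 at the adjusted threshold, and 0 to 2 when a library was left out. Of the wider neutrophil genes, 4 were higher after orchiectomy, and this was 7 with all genes, 0 with at least 10 counts, 2 with DESeq2, 0 with voom, 0 at the adjusted threshold, 1 with DESeq2 without replicate 2, and 1 to 6 when a library was left out. Their 13 lower with DHT became 6 with at least 10 counts, 8 with voom, 5 at the adjusted threshold, 8 without replicate 2 with all genes or with DESeq2, and 6 to 16 when a library was left out, 6 without orchiectomized replicate 2 and 7 without DHT-treated replicate 1.

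The log2 difference of Lcn2 for DHT against orchiectomy ran from -2.02 to 0.33 when a library was left out and was above 0 only without orchiectomized replicate 2 (0.33 with all genes and 0.34 with DESeq2). That of Csf3r for DHT against control ran from -0.34 to 0.02 and was above 0 only without DHT-treated replicate 1. With all libraries DESeq2 gave Ltf and Lcn2 no P value, so its counts then cover 4 tested members. The fits without replicate 2 combined with all genes or with DESeq2 were chosen after seeing the data. Replicate numbers did not pair the samples: correlations of same-numbered deviations ran from -0.466 to 0.463. With the number as a block, 4 genes were higher after orchiectomy, 2 lower with DHT and 0 higher with DHT than in control, and 1 wider neutrophil gene was higher after orchiectomy. The causes of these changes were not tested. At 8268957 to 13816864 reads, ratios against groups with few reads, such as Camp, Elane and Ly6g in control mice, had wide counting intervals.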
